A study of Homo sapiens with 24 samples.

Results

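The 37 genes of the human mitochondrial genome were examined as 1 set across RNA-seq libraries of 2 cell lines that carried 1 of 4 plasmids. The members were the genes whose mapped symbol begins with MT-, 37 of 60236 genes in the table, and they comprised 13 mRNAs, 2 rRNAs and 22 tRNAs. HEK293T is a human embryonic kidney line and A549 a human lung adenocarcinoma line. In each line, 3 replicates were transfected with a plasmid for snaR-A (a small noncoding RNA made by RNA polymerase III, driven here by a U6 promoter), 3 with a U6 plasmid for a scramble sequence, 3 with a plasmid for SF3B2 (a subunit of the U2 snRNP splicing particle) and 3 with a plasmid for eGFP. All 24 libraries shared transfection with a Lipofectamine reagent and collection at 48 h, and there was no untransfected group. The study's methods call the replicates biological and processed on the same day, so p-values measure the spread between samples of 1 day. The RNA was depleted of rRNA and enriched for poly(A)+ RNA before stranded library preparation.

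The mitochondrial genome is a small circle whose 2 strands are each transcribed as long precursors. The tRNAs lie between most of the other genes, and their excision releases the rRNAs and mRNAs. The mRNAs encode subunits of complexes I, III, IV and V of oxidative phosphorylation (OXPHOS), the rRNAs form the mitochondrial ribosome, and all other subunits and factors are encoded in the nucleus. Most mitochondrial mRNAs carry a short poly(A) tail, which also completes the stop codon of several of them. MT-ND6, the mRNA of the light strand, is known to lack a stable tail, and mature tRNAs end in CCA instead.

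Library totals lay between 195185935 and 260878271 counts, so that 3 counts, the limit that a count of 0 allows, corresponded to 0.0115 to 0.0154 CPM, the count per library total, which is given below after TMM scaling. Intervals and limits of this kind cover counting error only. Of the markers set for each line, 10 of 10 for A549 and 7 of 10 for HEK293T were higher in every library of their own line. Of the HEK293T markers that were not, INA went the other way, at 18.32 to 29.43 CPM in HEK293T and 106.2 to 147.8 CPM in A549. CRMP1 and SALL3 reached at most 0.251 and 0.205 CPM in any library. The HEK293T library labelled eGFP replicate 3 held 740.4 CPM of summed A549 markers, or 3.4% of the A549 median, against 8.65 to 26.7 CPM in the other 11 HEK293T libraries. SF3B2 reached 8773 CPM in the library labelled A549 scramble replicate 3, against 293.2 to 371.5 CPM in the other libraries without the SF3B2 plasmid and 24055 to 48888 CPM in those with it. For the third A549 snaR-A library the label fields name different cell lines, and its markers lay within the range of the A549 libraries. Shares, counts of calls and the nuclear genes named are also given without these 3 libraries where they enter, an alternative chosen after seeing the data. In A549, replicate 3 also had the lowest MT-RNR2 to MT-RNR1 count ratio, the highest MT-CO2 share of the mRNA counts and the highest RN7SK and H1-4 (nuclear RNAs without a poly(A) tail) in 4 of 4 plasmid groups, against 1 to 2 of 4 groups in HEK293T. All A549 SF3B2 libraries shared this profile. Their ratios were 7.46, 8.07 and 5.41, against 9.39 to 10.46 in replicates 1 and 2 of the other A549 groups. Their MT-CO2 shares were 9.63%, 9.99% and 10.04%, against 8.40% to 9.19% there. RN7SK was at 6.37, 5.32 and 9.66 CPM, against 0 to 1.73 CPM there. The A549 SF3B2 comparisons therefore coincide with this profile, and its part in the A549 results was not tested.

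The map sets which reads can be assigned to a gene, and the sequences below show where mitochondrial mRNAs share bases and how they end. All are from the hg38 mitochondrial chromosome, 5′ to 3′. MT-ATP8 and MT-ATP6, the complex V subunits, overlap by 46 bases, and MT-ND4L and MT-ND4, subunits of complex I, by 7 bases. Each pair stays on 1 mature mRNA, and the capitals below mark the bases that both genes hold.
MT-ATP8/MT-ATP6, chrM:8515-8584, plus strand: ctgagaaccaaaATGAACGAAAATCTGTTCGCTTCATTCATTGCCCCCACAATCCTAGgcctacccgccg
MT-ND4L/MT-ND4, chrM:10748-10778, plus strand: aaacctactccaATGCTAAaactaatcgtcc

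Of the 13 mRNAs, 6 (MT-ND1, MT-ND2, MT-CO3, MT-ND3, MT-ND4 and MT-CYB) ended in an incomplete stop codon and 7 in a complete one. The last 18 bases of 4 of them are shown, with the bases of the final codon in capitals, because MT-ND1 and MT-ND5 did not overlap between the lines in their shares of the mRNA total, MT-ND3 was called after snaR-A, and MT-ND6 is read from the other strand.
MT-ND1, chrM:3307-4262, plus strand: cattccccctcaaaccTA
MT-ND3, chrM:10059-10404, plus strand: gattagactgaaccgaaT
MT-ND5, chrM:12337-14148, plus strand: ctactcctaatcacaTAA
MT-ND6, chrM:14149-14673, minus strand: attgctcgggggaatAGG

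The 3 tRNAs with the highest mean CPM were MT-TF (phenylalanine), MT-TL1 (leucine) and MT-TE (glutamate). MT-TF is the first gene of the heavy-strand unit and MT-TL1 separates MT-RNR2 from MT-ND1.
MT-TF, chrM:577-647, plus strand: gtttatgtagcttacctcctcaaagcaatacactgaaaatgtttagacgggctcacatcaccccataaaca
MT-TL1, chrM:3230-3304, plus strand: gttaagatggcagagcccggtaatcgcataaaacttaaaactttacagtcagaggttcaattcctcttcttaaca
MT-TE, chrM:14674-14742, minus strand: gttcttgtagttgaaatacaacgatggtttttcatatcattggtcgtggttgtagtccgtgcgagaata

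Mitochondrially encoded RNA took 4.09% to 10.78% of the counts in HEK293T libraries and 8.86% to 16.28% in A549 libraries. The means were 6.27% ± 1.87 and 11.39% ± 2.19 (SD, n = 12 each), a difference of 5.12 percentage points against a replicate SD of 1.72, and the ranges of the lines overlapped. The overlap came from HEK293T SF3B2, whose replicates held 10.78%, 8.37% and 5.75% and whose first replicate alone lay within the A549 range. Without the 3 libraries that stand apart or whose labels conflict, the difference was 5.69 points. That value gives the 4 plasmid group means of a line equal weight, so it is not a mean over the remaining libraries.

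The other HEK293T shares were 6.07%, 4.22% and 7.02% with scramble, 4.09%, 4.85% and 5.61% with snaR-A and 5.58%, 5.87% and 7.05% with eGFP. A549 libraries held 16.28%, 14.41% and 10.01% with scramble, 11.26%, 12.20% and 11.60% with snaR-A, 9.50%, 8.86% and 10.86% with SF3B2, and 10.21%, 9.25% and 12.26% with eGFP. In each of the 6 plasmid comparisons within a line the 2 groups overlapped. The group differences ran from -2.99 percentage points (A549 eGFP against scramble, replicate SD 2.53) to 2.13 points (HEK293T SF3B2 against eGFP, replicate SD 1.86). Loss or gain of mitochondrial genomes, of their transcription or of RNA stability cannot be told apart in such bulk shares, nor can a change in the nuclear RNA they are set against.

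**Figure D1:**
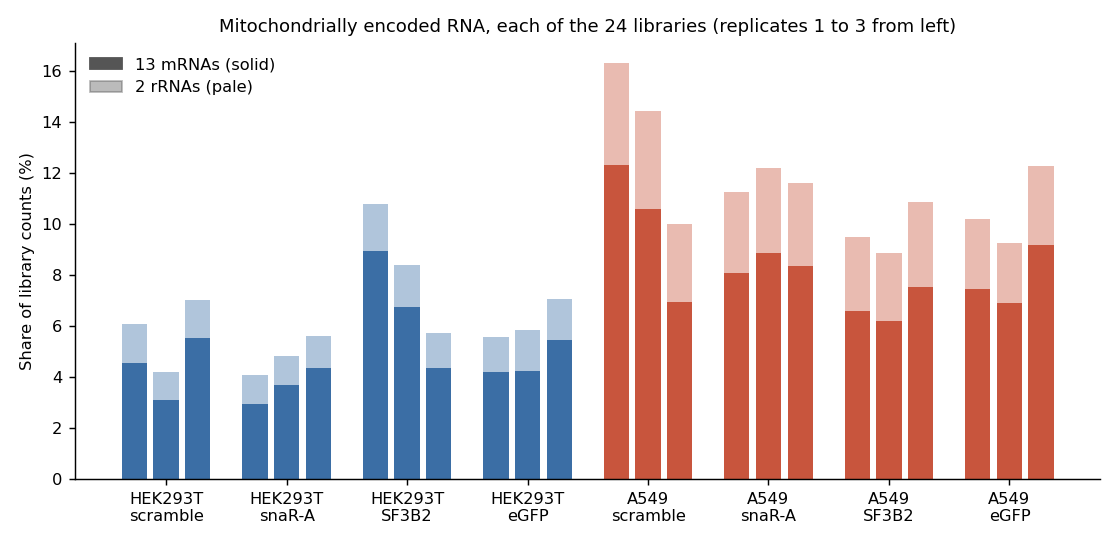
Share of each library's counts (%) from the 13 mRNAs (solid) and 2 rRNAs (pale) of the mitochondrial genome, 1 bar per library, replicates 1 to 3 from left in each of the 8 groups. A549 bars sit between 8.86% and 16.28% and HEK293T bars between 4.09% and 10.78%, with the overlap in the SF3B2 group.

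By class, mRNAs gave 2.94% to 8.94% of the counts in HEK293T and 6.20% to 12.30% in A549. The rRNAs gave 1.10% to 1.84% in HEK293T and 2.36% to 3.98% in A549, without overlap. Of the mitochondrial total, mRNAs made up 76.6% in HEK293T and 72.2% in A549, and rRNAs 23.4% and 27.8%. The 22 tRNAs together made up 0.000969% to 0.00333% of it. The rRNA and tRNA shares are what the depletion and the poly(A) selection left, and whether the depletion was aimed at mitochondrial rRNA is not given in the sources used here.

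Between the lines, 12 of the 13 mitochondrial mRNAs were called higher in A549 than in HEK293T. "Called" here means an adjusted p under 0.05 over all genes tested (Benjamini-Hochberg) in the quasi-likelihood F-test of edgeR, in a fit over all 24 libraries with plasmid as covariate. This is to be read against a background in which 84.7% of the 24981 genes tested were called in either direction, 42.3% higher and 42.4% lower. With a log2 difference above 1 in addition, 10 of the 13 mRNAs were called higher, against 22.6% of all genes. That number depended on the setting. Over the alternative scalings, filters and tests, the lowest value stayed above 1 only for MT-ND1 (1.61), MT-ND2 (1.28) and MT-CO1 (1.04). For MT-CO3 it was 0.91 and for MT-CO2 0.55. The median log2 difference was 1.12 over the 13 mRNAs and -0.002 over all genes tested. Without the 3 libraries named above, 12 mRNAs were again called. Where libraries of the lines or groups are said below not to overlap, this describes the named gene only. The share of all genes without such overlap was not counted.

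Complex I takes electrons from NADH, and 7 of its subunits are encoded here. MT-ND1 ranged from 775.8 to 4164 CPM in HEK293T (median 1463) and from 4833 to 11663 CPM in A549 (median 5851). The lines did not overlap, and the log2 difference was 2.08 ± 0.23 (SE; adjusted p = 1.96e-08, edgeR), the largest of the mRNAs. MT-ND2 likewise separated all 24 libraries, with 1603 to 5960 CPM (median 2320) against 6698 to 14805 CPM (median 8070) and a log2 difference of 1.75 ± 0.18 (adjusted p = 6.18e-09, edgeR). MT-ND4, which reached 3317 to 13249 CPM (median 5333) in HEK293T and 9827 to 20905 CPM (median 11750) in A549, rose less, by 1.10 ± 0.18. Its partner MT-ND4L ranged from 445.7 to 2030 CPM (median 707.4) and from 1220 to 3094 CPM (median 1750), with 1.19 ± 0.21. For both, the highest HEK293T library lay within the A549 range. MT-ND3 ranged from 558.6 to 1235 CPM (median 646.8) and from 1010 to 2016 CPM (median 1240), with 0.91 ± 0.12 (adjusted p = 3.48e-07, edgeR).

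MT-ND5 was the mRNA that was not called. It ranged from 1846 to 8195 CPM in HEK293T (median 2954) and from 3030 to 7269 CPM in A549 (median 3906), so that the HEK293T libraries spanned the whole A549 range. Its log2 difference was 0.32 ± 0.19 (adjusted p = 0.124, edgeR). Without HEK293T SF3B2 replicate 1, the highest library of its line, it was 0.44 and called (adjusted p = 0.0119, edgeR). With library size alone as the scaling, which moves the median of all genes to -0.47, it was -0.15 (adjusted p = 0.434, edgeR). MT-ND6 ranged from 134.7 to 452.3 CPM (median 237.3) and from 219.4 to 523.3 CPM (median 357.8), and its log2 difference was 0.65 ± 0.20 (adjusted p = 0.00457, edgeR), falling to 0.18 (adjusted p = 0.366) under library size alone.

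Complex III passes electrons to cytochrome c, and its subunit MT-CYB ranged from 1556 to 6243 CPM (median 2702) in HEK293T and from 4719 to 9687 CPM (median 5780) in A549, a log2 difference of 1.12 ± 0.18. Complex IV reduces oxygen, and MT-CO1 to MT-CO3 are its catalytic core. MT-CO1 ranged from 4939 to 15149 CPM (median 6914) and from 16975 to 33428 CPM (median 21101), without overlap, and its difference was 1.51 ± 0.16 (adjusted p = 7.23e-09, edgeR). MT-CO3 ranged from 2630 to 8718 CPM (median 3750) and from 8209 to 16280 CPM (median 9888), with 1.38 ± 0.17. MT-CO2 ranged from 2727 to 8761 CPM (median 4029) and from 7184 to 13238 CPM (median 8295), with 1.01 ± 0.15. Of the 3, MT-CO1 alone kept all A549 libraries above all HEK293T libraries.

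Complex V is the ATP synthase. MT-ATP8 ranged from 1048 to 3744 CPM (median 1658) in HEK293T and from 2580 to 6416 CPM (median 4071) in A549, with a log2 difference of 1.15 ± 0.20. MT-ATP6 ranged from 2109 to 9490 CPM (median 3764) and from 6114 to 14163 CPM (median 8081), with 1.06 ± 0.20 (adjusted p = 2.9e-05, edgeR). The nuclear copy MTATP6P1 held 8.59% to 14.3% of its own counts plus those of MT-ATP6 in HEK293T and 8.3% to 12.9% in A549. Of the 31-base words of MT-ATP6, 63.7% also occur in another gene, and the values are from 1.2% for MT-RNR2 to 66.7% for MT-CO1 over the rRNAs and mRNAs. How the authors' quantification divided such reads is therefore uncertain. Of 393 annotated nuclear copies of mitochondrial genes, 14 were tested between the lines, and 12 were called higher and 1 lower, beside 42.3% and 42.4% of all genes. A copy could pass the filter on low counts through the line in which it was higher, so these 14 do not describe the 393.

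Both rRNAs were called higher in A549, by very different amounts. MT-RNR2, the 16S rRNA of the large ribosomal subunit, ranged from 6786 to 15144 CPM in HEK293T (median 8895) and from 24777 to 45314 CPM in A549 (median 32993). The lines did not overlap, with a log2 difference of 1.79 ± 0.11 (adjusted p = 5.11e-13, edgeR). MT-RNR1, the 12S rRNA of the small subunit, ranged from 1709 to 4657 CPM (median 2351) and from 2638 to 6143 CPM (median 3979), with 0.64 ± 0.13 (adjusted p = 0.00013, edgeR). Both were again called without the 3 doubted libraries. Under library size alone the MT-RNR1 difference was 0.17 and not called (adjusted p = 0.246, edgeR). The ratio of MT-RNR2 to MT-RNR1 counts was 1.77 to 5.41 in HEK293T and 5.41 to 10.46 in A549, so that HEK293T SF3B2 replicate 1 and A549 SF3B2 replicate 3 met at the boundary.

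**Figure D2:**
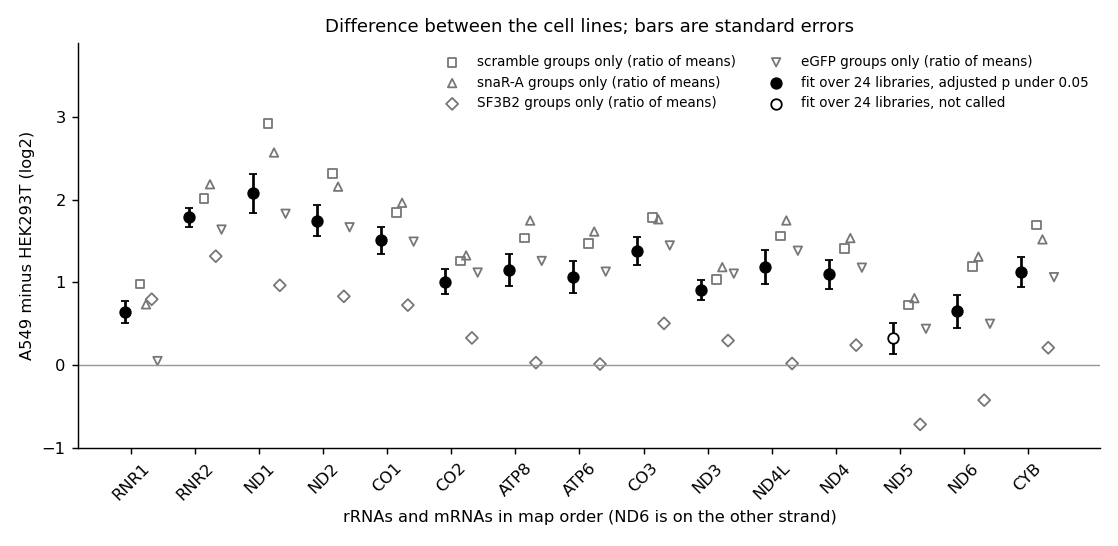
Log2 difference A549 minus HEK293T for the 2 rRNAs and 13 mRNAs in map order. Black points are the fit over 24 libraries with standard errors (filled, adjusted p under 0.05), and grey open symbols are log2 ratios of group means within each plasmid. MT-ND1 is highest at 2.08, MT-ND5 is not called at 0.32, and the SF3B2 diamonds are the lowest symbol of every mRNA.

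The difference between the lines was also read within each plasmid group, as ratios of group means with no test. For MT-ND1 the log2 ratio of the 2 lines' means was 2.92 with scramble, 2.57 with snaR-A, 1.83 with eGFP and 0.96 with SF3B2. MT-ND5 gave 0.73, 0.81, 0.44 and -0.72 in the same order, and MT-ND6 gave 1.19, 1.31, 0.50 and -0.43. MT-ATP6 gave 1.47, 1.61, 1.13 and 0.01. The SF3B2 groups had the smallest value for each of the 13 mRNAs, and the values of MT-ND5 and MT-ND6 were below 0 there. The interaction tests of SF3B2 and snaR-A, given further on, called 0 of 13. Without the 3 doubted libraries the MT-ND1 values were 3.17, 2.55, 2.09 and 0.96, and the SF3B2 groups, which hold none of these libraries, again had the smallest value for each mRNA. For MT-RNR2 the values were 2.01, 2.19, 1.64 and 1.32, and for MT-RNR1 0.98, 0.73, 0.05 and 0.80.

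Of the 22 tRNAs, 10 passed the filter on low counts in the fit over both lines and 7 were called higher in A549, 6 of them with a log2 difference above 1, beside 42.3% and 22.6% of all genes. A tRNA could pass that filter through the line in which it was higher, so the 7 do not describe all 22. MT-TF ranged from 0.120 to 0.352 CPM in HEK293T (median 0.197) and from 0.433 to 1.896 CPM in A549 (median 1.417), a log2 difference of 2.76 (adjusted p = 1.21e-10, edgeR). MT-TL1 ranged from 0.0937 to 0.752 CPM (median 0.176) and from 0.490 to 1.701 CPM (median 0.673), with 1.91 (adjusted p = 6.25e-06, edgeR). MT-TE ranged from 0.0424 to 0.135 CPM (median 0.0727) and from 0.130 to 0.388 CPM (median 0.227), with 1.70 (adjusted p = 9.47e-08, edgeR). MT-TF and MT-TV separated all libraries of the lines, while MT-TL1 and MT-TE overlapped. Summed over the 22, a library held 118.3 to 473.4 tRNA counts in HEK293T and 400.3 to 776.6 in A549, and MT-TG was at 0 in all 24. These counts come from a library that selects against RNA without poly(A) and can include reads of uncut precursors, so they say little of mature tRNA.

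Compared per length, the order of the genes differed between the lines. In HEK293T the highest mean levels were those of MT-ATP8 at 9316 ± 3919 CPM per kb (SD, n = 12), MT-CO2 at 6647 ± 2402, MT-ATP6 at 6398 ± 3012 and MT-RNR2 at 6201 ± 1540, and neighbours in this order differed by less than the SD of the higher gene. In A549 MT-RNR2 led with 21243 ± 3681 CPM per kb, ahead of MT-ATP8 at 19955 ± 5308 by less than its SD, and then MT-CO1 at 14572 ± 3162 and MT-CO3 at 13623 ± 3081. MT-ND6 was lowest in both, at 461.4 ± 181.8 and 708.4 ± 184.5 CPM per kb. Reads in the 46 bases shared by MT-ATP8 and MT-ATP6 are divided by estimation and weigh most on the short MT-ATP8. Counts of MT-ND6 were 5.84% to 10.18% of those of its neighbour MT-CYB in HEK293T and 4.65% to 8.44% in A549. Where strand was not used in the quantification, which is not given in the sources used here, reads of MT-ND6 and of its antisense RNA cannot be told apart.

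The lines also differed in the shares that single genes took of the mitochondrial mRNA total. MT-ND1 made up 2.93% to 5.19% of the mRNA counts in HEK293T and 6.18% to 7.60% in A549, and MT-ND2 5.73% to 7.61% and 8.56% to 9.65%. MT-ND5 went the other way, with 6.93% to 9.39% in HEK293T and 3.79% to 4.74% in A549. These 3 did not overlap between the lines, and the other 10 did. The means differed by 2.92 percentage points for MT-ND1, 2.59 for MT-ND2, 3.79 for MT-CO1 and 0.88 for MT-CO3, all higher in A549, and by -3.92 for MT-ND5, -1.72 for MT-CO2, -1.54 for MT-ND4 and -1.31 for MT-ATP6. The remaining 5 mRNAs had lower shares in A549 by up to 0.63 points (MT-CYB). As shares must sum to 100%, a higher share of 1 gene lowers the others.

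Summed by complex, the shares were close. The 7 complex I mRNAs took 36.6% to 40.3% of the mRNA counts in HEK293T and 35.3% to 39.3% in A549, and the 3 of complex IV took 37.4% to 43.4% and 41.0% to 44.7%. Complex V took 14.8% and 13.1% on average and complex III 7.08% and 6.45%. The near-equal complex I sum held opposite differences, since MT-ND1 and MT-ND2 had larger and MT-ND5 and MT-ND4 smaller shares in A549. Shares also varied less between replicates than levels did: the median coefficient of variation over the 13 mRNAs was 21.9% for CPM and 4.0% for the share, and lower for the share in 13 of 13.

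**Figure D3:**
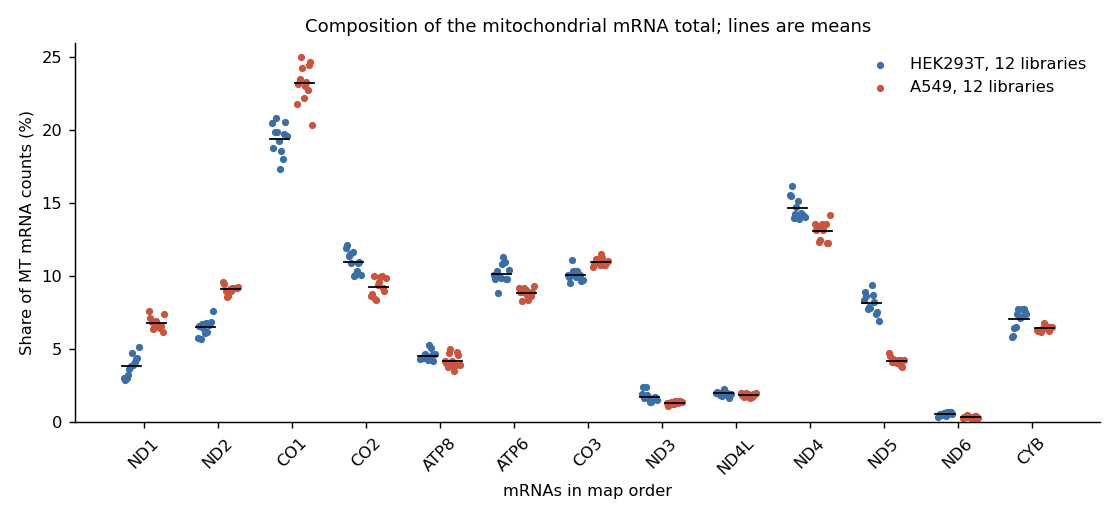
Share of the summed counts of the 13 mitochondrial mRNAs (%) for each mRNA in map order, 1 point per library, 12 libraries per line, with lines at the means. MT-ND1 (6.18% to 7.60% in A549 against 2.93% to 5.19%), MT-ND2 and MT-ND5 are the mRNAs whose points do not overlap between the lines.

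The ratio of MT-ND1 to MT-ND5 counts, taken as a description because these are the mRNAs whose shares differed, needs no scaling between libraries. It lay between 1.48 and 1.72 in all 12 A549 libraries. Within HEK293T it was 0.360, 0.327 and 0.355 with scramble, 0.420, 0.464 and 0.490 with snaR-A, 0.508, 0.452 and 0.499 with SF3B2, and 0.580, 0.583 and 0.749 with eGFP. Every scramble library lay below every other HEK293T library and every eGFP library above them. The eGFP replicate at 0.749 is the library with A549 markers. The other pairs varied less with line: MT-ATP8 counts were 0.395 to 0.558 of those of MT-ATP6, and MT-ND4L counts 0.117 to 0.163 of those of MT-ND4, over all 24 libraries.

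**Figure D4:**
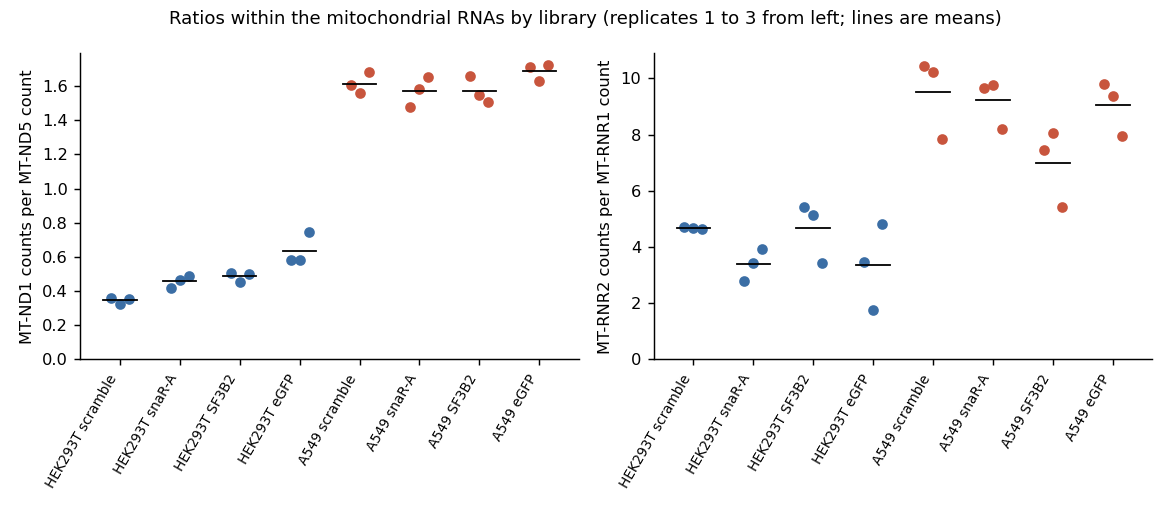
Count ratios between mitochondrial RNAs by library, replicates 1 to 3 from left in each of the 8 groups, with lines at group means and axes from 0. The MT-ND1 to MT-ND5 ratio is between 0.327 and 0.749 in HEK293T and between 1.48 and 1.72 in A549.

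After snaR-A in HEK293T, 1 of the 13 mRNAs and 1 of the 2 rRNAs were called, both lower, while 36.3% of all genes tested were called and 18.5% were lower. MT-ND3 was at 568.7, 560.0 and 561.3 CPM with snaR-A and 789.1, 666.2 and 781.5 CPM with scramble. The groups did not overlap, and MT-ND3 fell by 0.40 ± 0.07 on the log2 scale (SE, adjusted p = 0.00354, edgeR). It was called in every leave-one-out fit, but not when all 12 libraries of the line shared 1 fit (-0.41, adjusted p = 0.137). MT-RNR2 was at 6786, 7289 and 8134 CPM with snaR-A and 10831, 7974 and 10520 CPM with scramble, groups that overlapped, and fell by 0.39 ± 0.13 (adjusted p = 0.0413, edgeR). Its call was lost without scramble replicate 1, scramble replicate 3, snaR-A replicate 1 or snaR-A replicate 2 (-0.32 to -0.39, adjusted p = 0.0922 to 0.135), under library size alone (-0.29, adjusted p = 0.102) and in the fit over the 12 libraries of the line (-0.41, adjusted p = 0.13).

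The log2 fold changes of the 13 mRNAs in that comparison were all below 0, from -0.50 to -0.10. At an unadjusted p under 0.05 there were 3, DESeq2 called 1 and edgeR's exactTest 3 (MT-ND3, MT-ND5 and MT-ND4L). The result rested on the scramble libraries: scramble replicate 2 had the lowest mitochondrial share of its group, and without it 9 mRNAs were called lower. For leave-one-out fits and for counts at an unadjusted p, here and below, the share of all genes is not given. Such counts therefore do not show a change particular to mitochondrial genes. MT-RNR1, in contrast, was at 2429, 2128 and 2073 CPM with snaR-A and 2305, 1709 and 2275 CPM with scramble. MT-ND1 was at 775.8, 1092 and 1363 CPM against 1211, 807.7 and 1458 CPM, overlapping groups.

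In A549, snaR-A left 0 of 13 mRNAs and 0 of 2 rRNAs called, where 0.0185% of the genes tested were called. No mRNA had an unadjusted p under 0.05, and DESeq2 and exactTest also called 0. Fold changes ran from -0.46 (MT-ND1, SE 0.24, adjusted p = 0.798, edgeR) to -0.02. MT-ND1 was at 5934, 6675 and 6588 CPM with snaR-A and 11663, 9189 and 5489 CPM with scramble, and the lowest scramble value was that of the library with raised SF3B2. Without the scramble and snaR-A libraries named above, the MT-ND1 value was -0.73 (adjusted p = 0.109, edgeR). The interaction test of whether the snaR-A effect differed between the lines called 0 of 13 mRNAs, with 0 at an unadjusted p under 0.05 and 0 by DESeq2, where 11.4% of genes were called. The interaction values ran from -0.37 to 0.19.

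SF3B2 was compared with eGFP, the protein-coding plasmid control. In HEK293T, 0 of 13 mRNAs were called, where 0.172% of the genes tested were. All 13 fold changes were above 0, from 0.48 to 1.01, 7 had an unadjusted p under 0.05, DESeq2 called 2 (MT-CYB and MT-ATP8) and exactTest 0. Over all 22623 genes tested, DESeq2 called 1083 higher and 1009 lower. MT-ND5 was at 8195, 5351 and 3129 CPM with SF3B2 and 2530, 2560 and 3125 CPM with eGFP, a log2 fold change of 1.01 ± 0.33 (adjusted p = 0.167, edgeR). MT-ND4L was at 2030, 1278 and 762.4 CPM against 649.3, 563.0 and 873.5 CPM, with 0.95 ± 0.35 (adjusted p = 0.194, edgeR). The SF3B2 replicates stood far apart, the first being the highest HEK293T library for 12 of the 13 mRNAs and the third lying near the eGFP values. Replicates 1 and 2 also had the lowest RN7SK (2.62 and 3.51 CPM) and H1-4 (0.67 and 0.80 CPM) of the HEK293T libraries. Replicate 3 was at 18.58 and 2.58 CPM, and eGFP replicate 3 was next lowest at 5.49 and 0.97 CPM. The part of this in the SF3B2 values was not tested. Without SF3B2 replicate 3, 8 mRNAs were called higher, and the share of all genes called in that fit is not given. Without eGFP replicate 3, the library with A549 markers, 0 were called, and the MT-ND5 value was 1.11 (adjusted p = 0.239, edgeR).

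In A549 the SF3B2 comparison also called 0 of 13 mRNAs, where 7.02% of the genes tested were called. All 13 fold changes were below 0, from -0.41 to -0.12, with 4 at an unadjusted p under 0.05. DESeq2 called 3 (MT-ND6, MT-ND4L and MT-ATP8) and exactTest 2 (MT-ND6 and MT-ATP8). Over all 21581 genes tested, DESeq2 called 1441 higher and 1422 lower, and exactTest 859 and 882. MT-ND6 was at 265.4, 219.4 and 302.3 CPM with SF3B2 and 366.7, 341.9 and 349.0 CPM with eGFP, groups that did not overlap, with -0.41 ± 0.11 (adjusted p = 0.0753, edgeR). MT-ND6 was called without SF3B2 replicate 3 (-0.53). MT-ATP8 was at 3006, 2580 and 3518 CPM against 4171, 3686 and 4389 CPM, with -0.41 ± 0.12 (adjusted p = 0.0991, edgeR).

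The difference of the SF3B2 effect between the lines was tested directly by the interaction term, which called 0 of 13 mRNAs, where 6.10% of genes were called. All 13 values were negative, from -1.36 to -0.77, 11 had an unadjusted p under 0.05, and DESeq2 called 7. Over all 24714 genes tested, DESeq2 called 1781 higher and 2270 lower. The nearest to the threshold were MT-ATP8 with -1.23 ± 0.33 (adjusted p = 0.0516, edgeR) and MT-ND6 with -0.92 ± 0.27 (adjusted p = 0.0642, edgeR). The result hung on single libraries: 12 mRNAs were called without HEK293T SF3B2 replicate 3, and MT-ATP8 was called without HEK293T eGFP replicate 3, the library with A549 markers (-1.42, adjusted p = 0.032, edgeR). The share of all genes called without HEK293T SF3B2 replicate 3 is not given.

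**Figure D5:**
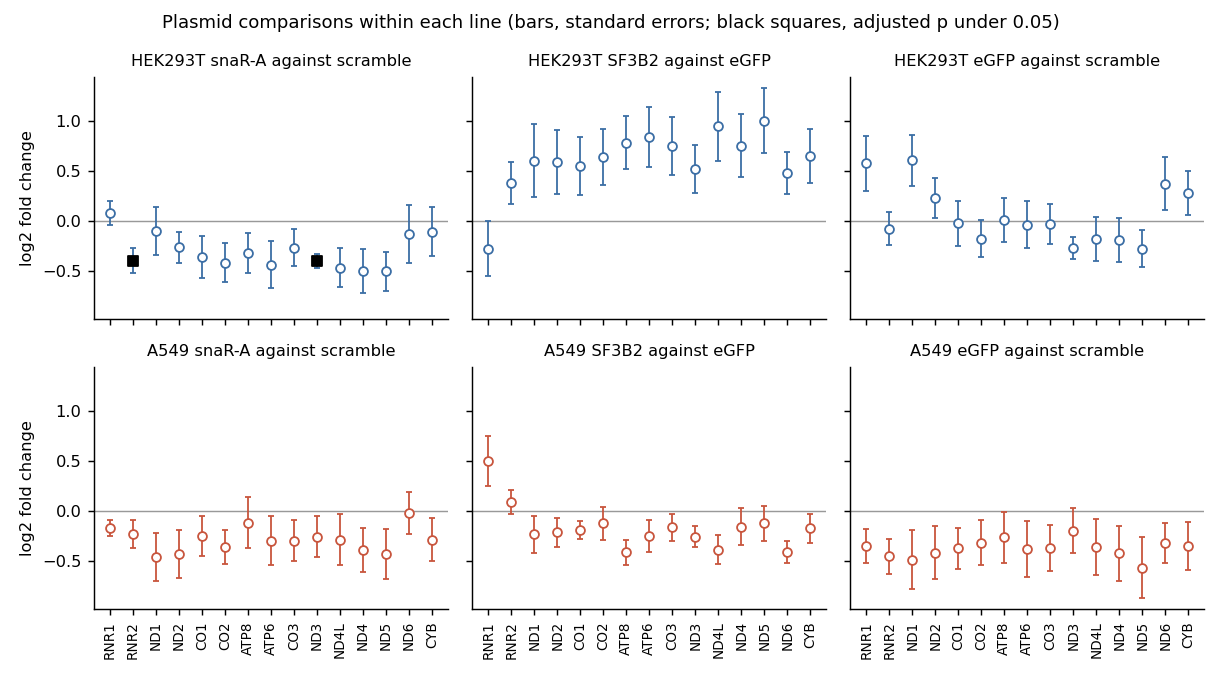
Log2 fold changes of the 2 rRNAs and 13 mRNAs in map order for the plasmid comparisons within each line, with standard errors. Black squares are adjusted p under 0.05, and they mark only MT-ND3 and MT-RNR2 after snaR-A in HEK293T.

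The eGFP and scramble groups, both controls but on different plasmids, were compared with each other as well. They share the control libraries of the comparisons above. In HEK293T 0 of 13 mRNAs were called, where 48.8% of all genes were and 25.8% were lower. An unadjusted p under 0.05 was reached by 2, DESeq2 called 1 (MT-ND3) and exactTest 2 (MT-ND3 and MT-ND1). MT-ND1 was at 1467, 1493 and 2339 CPM with eGFP and 1211, 807.7 and 1458 CPM with scramble, groups that did not overlap, with 0.61 ± 0.25 (adjusted p = 0.0823, edgeR). Without the third eGFP library, which holds the A549 markers, the value was 0.35 (adjusted p = 0.216, edgeR). MT-ND3 was at 558.6, 596.9 and 705.1 CPM against 789.1, 666.2 and 781.5 CPM, with -0.26 ± 0.11 (adjusted p = 0.0808, edgeR), and was called without that library (-0.37, adjusted p = 0.0176, edgeR).

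In A549 the same comparison called 0 of 13 mRNAs, where 1.49% of genes were called, with 0 at an unadjusted p under 0.05 and 0 by DESeq2 and exactTest. Fold changes ran from -0.57 to -0.20. MT-ND5 was at 3339, 3030 and 4758 CPM with eGFP and 7269, 5893 and 3266 CPM with scramble, with -0.57 ± 0.30 (adjusted p = 0.879, edgeR), and the scramble library with raised SF3B2 was again the lowest of its group. Without it MT-ND6 was called.

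Among the rRNAs, MT-RNR1 had 1 high library in each of 2 groups. HEK293T eGFP replicate 2 was at 4657 CPM, against 2474 and 2277 CPM in the other eGFP replicates, and A549 SF3B2 replicate 3 at 6143 CPM, against 4047 and 3460 CPM. The same libraries had the highest RN7SK, the 7SK RNA that is made by RNA polymerase III without a poly(A) tail, in their lines (40.42 and 9.66 CPM). Over all libraries RN7SK ran from 2.62 to 40.42 CPM in HEK293T and from 0 to 9.66 CPM in A549, and the summed nuclear RNAs without poly(A) tails from 50.56 to 164.4 and from 79.93 to 134.5 CPM. RN7SK was picked from that list after its values were seen, and the list sum did not follow it in A549: SF3B2 replicate 3 was at 107.7 CPM, and the highest library, snaR-A replicate 1, had 1.12 CPM of RN7SK. Their part in the MT-RNR1 values was not tested. With all libraries, MT-RNR1 was called in none of the 6 plasmid comparisons, and MT-RNR2 only in that of snaR-A in HEK293T. MT-RNR1 was called for eGFP against scramble in HEK293T without the eGFP library with A549 markers (0.77 ± 0.25, adjusted p = 0.0384, edgeR), and for the same plasmids in A549 without eGFP replicate 3 (-0.57 ± 0.09, adjusted p = 0.0379, edgeR).

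The tRNAs that passed the filter numbered 5 to 9 in the plasmid comparisons, and 0 were called in any. MT-TQ (glutamine, light strand) had the largest value in HEK293T SF3B2, with 0.530, 0.191 and 0.0537 CPM against 0.0672, 0.0461 and 0.0381 CPM with eGFP. Its log2 fold change was 2.33 ± 0.78 (adjusted p = 0.174, edgeR), DESeq2 called it, and it was called without SF3B2 replicate 3.

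Nuclear genes of the OXPHOS complexes were read from the same fits, with those of complex II, which has no mitochondrially encoded subunit. Between the lines, 77 nuclear OXPHOS subunits were tested, of which 18 were called higher and 50 lower in A549, with a median log2 difference of -0.26 against 1.12 for the mitochondrial mRNAs. All genes were called higher in 42.3% and lower in 42.4%. Under library size alone 4 were higher and 69 lower, beside 28.7% and 57.6% of all genes, and without the 3 doubted libraries 18 and 47. By complex, 9 of 35 subunits of complex I were higher and 24 lower, and 0 and 3 of 4 in complex II. The numbers were 2 and 5 of 9 in complex III, 3 and 8 of 12 in complex IV, and 4 and 10 of 17 in complex V. UQCRFS1, the iron-sulphur subunit of complex III, was higher by 1.31 ± 0.05 (adjusted p = 9.73e-18, edgeR), and ATP5PO, in the stalk of complex V, lower (-1.27 ± 0.05, adjusted p = 2.15e-17, edgeR).

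Factors that copy, transcribe and process mitochondrial genomes went both ways between the lines. Of 23 transcription and maintenance genes, 12 were higher and 8 lower in A549, of 38 RNA processing and decay genes 24 and 10, and of 77 mitoribosome proteins 35 and 32, beside 42.3% and 42.4% of all genes. Library size alone turned the first pair of lists over, to 5 higher and 16 lower and to 10 and 26, and gave 10 and 52 for the mitoribosome. Under that scaling 28.7% of all genes were higher and 57.6% lower. PPARGC1A, a coactivator of nuclear genes for mitochondria, was lower (-3.98 ± 0.11, adjusted p = 4.33e-20, edgeR). LACTB2, a mitochondrial endoribonuclease, was higher by 2.17 ± 0.06 (adjusted p = 1.09e-20, edgeR), and GTPBP3, a tRNA modification enzyme, lower (-1.83 ± 0.05).

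After snaR-A in HEK293T, 3 nuclear OXPHOS subunits were higher and 36 lower of 77, 10 of the 12 in complex IV among the lower, beside 17.8% of all genes higher and 18.5% lower. COX7B of complex IV changed by -0.42 ± 0.06 (adjusted p = 0.0011, edgeR) and UQCRB of complex III by -0.42 ± 0.06 (adjusted p = 0.00146, edgeR). Library size alone, which moves the median of all genes from -0.007 to 0.09, left 3 higher and 12 lower, beside 27.0% and 10.0% of all genes. In the eGFP against scramble comparison of the same line, which shares the scramble libraries, 2 were higher and 65 lower, beside 25.8% of all genes lower, with 2 and 61 without eGFP replicate 3. Library size alone gave 4 and 41, beside 18.6% of all genes lower. The lower genes included COX7A2 of complex IV with -0.67 ± 0.07 (adjusted p = 0.000404, edgeR). RNA processing genes were higher in 16 of 38 and lower in 2 after snaR-A, beside 17.8% and 18.5% of all genes, and 26 and 0 under library size alone. The pseudouridine synthase PUS1 was among the higher (0.55 ± 0.07). For eGFP against scramble, with the same scramble libraries, 11 of the 38 were higher and 2 lower. Of all 22613 genes tested there, 5183 were higher and 5845 lower. In A549, 0 of 77 nuclear OXPHOS subunits were called after snaR-A and 0 for eGFP against scramble, and 10 were higher and 0 lower with SF3B2, beside 3.42% of all genes higher. The A549 SF3B2 libraries shared the profile of A549 replicate 3 given with the libraries, and its part here was not tested. In HEK293T SF3B2, 0 of 77 were called, and DESeq2 called 12 higher and 1 lower, beside 1083 and 1009 of all 22623 genes tested.

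PNPT1, the polynucleotide phosphorylase that degrades mitochondrial RNA, stood out in A549. It was at 464.5, 498.2 and 426.3 CPM with eGFP, 222.2, 188.2 and 151.8 CPM with scramble and 201.7, 199.8 and 181.7 CPM with SF3B2. The eGFP libraries lay above those of both other groups, with 1.30 ± 0.14 against scramble (adjusted p = 0.00337, edgeR) and -1.24 ± 0.06 for SF3B2 against eGFP (adjusted p = 0.000154, edgeR). Without the doubted scramble library the value was 1.17 ± 0.10 (adjusted p = 0.00348, edgeR). The interaction of line with SF3B2 against eGFP was -1.47 ± 0.19 for PNPT1 (adjusted p = 0.003, edgeR). In A549 the eGFP group stood apart and the SF3B2 values lay near those of scramble. Whether SF3B2 or the eGFP control made this value was not tested.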

How the data were processed

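RNA-seq of 24 libraries (8 groups of 3) was analysed. Reads were trimmed with TrimGalore and quantified by Salmon, per the study's methods. The values the authors deposited are estimated counts per Ensembl gene, not scaled between libraries. The transcriptome release and the tool that summed transcripts to genes are not given in the sources used here. Of the values 51% were not whole, and they were rounded. Samples were grouped by the cell line and plasmid of the labels. A549 snaR-A replicate 3 was grouped with A549.

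For each comparison, the 6 libraries of 2 groups were filtered with filterByExpr, scaled by TMM and compared in edgeR (glmQLFit and glmQLFTest), and p-values were adjusted by the Benjamini-Hochberg method over all genes tested (threshold 0.05). The line comparison used 24 libraries with plasmid as covariate, and interaction terms 12 libraries. Shares, ratios and sums over genes received no test. In simulated counts with a common spread between replicates for all genes, the fits recovered most of the known changes. The simulation did not use the replicate spread of the mitochondrial genes, so it does not measure the power for them. Alternatives were exactTest, DESeq2, other scalings and filters, shared fits, a replicate block and leaving libraries out.

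The named genes were all mitochondrial mRNAs and rRNAs, the 3 tRNAs of highest mean CPM, and up to 2 called members per nuclear list with the largest change. MT-TQ, MT-TV, MT-TG, RN7SK and MTATP6P1 were added after their values were seen. Members and lists were chosen with earlier results of these data known. Sequences and positions came from hg38. Versions were R 4.3.3, edgeR 4.0.16, limma 3.58.1, DESeq2 1.42.0, Python 3.11.15, pandas 2.3.3, numpy 2.4.6 and matplotlib 3.10.9.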

Additional observations from a re-analysis of the deposited data

Results flagged for a closer look

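None of the 13 mRNAs, 2 rRNAs and 8 to 9 tRNAs tested differed between the lines in the response to snaR-A or SF3B2 by the interaction test (edgeR, Benjamini-Hochberg adjusted p under 0.05 over all genes). Of the nuclear genes named in the text, 6 did, beside 6.1% of all genes for SF3B2 and 11.4% for snaR-A. These genes were named for being called, in these same interaction tests among others. The 6 are therefore no contrast to the mitochondrial genes. For SF3B2 against eGFP, the effect in A549 minus that in HEK293T was -1.47 ± 0.19 on the log2 scale (SE, adjusted p = 0.003) for PNPT1, the RNA-degrading phosphorylase, 0.76 ± 0.15 (adjusted p = 0.0229) for PUS1 and -0.59 ± 0.13 (adjusted p = 0.0269) for UQCRB. For snaR-A against scramble, it was -0.50 ± 0.14 (adjusted p = 0.0468) for PUS1, -0.64 ± 0.17 (adjusted p = 0.0358) for PPARGC1A, 0.54 ± 0.14 (adjusted p = 0.0279) for COX7A2 and 0.48 ± 0.10 (adjusted p = 0.0131) for COX7B. Without the doubted libraries the PPARGC1A value was -0.47 ± 0.17 and not called (adjusted p = 0.0958, edgeR), and the other 6 values were called. In that setting ATP5PO (0.31 ± 0.07, adjusted p = 0.0147, edgeR) and UQCRB (0.32 ± 0.08, adjusted p = 0.0255, edgeR) were also called for snaR-A. In HEK293T, PUS1 was at 34.36 to 38.76 CPM with eGFP, 22.31 to 30.44 with SF3B2 and 21.04 to 24.25 with scramble. UQCRB was at 138.2 to 152.5, 166.9 to 216.3 and 190.7 to 224.5 CPM in the same order. With snaR-A they were at 30.44 to 34.3 and 150.3 to 153.4 CPM. Whether SF3B2 or the eGFP control made the SF3B2 values of PNPT1, PUS1 and UQCRB was not tested. In HEK293T, PPARGC1A was at 10.74 to 12.01 CPM with scramble, 15.03 to 16.01 with snaR-A and 13.5 to 14.25 with eGFP. COX7A2 was at 111.7 to 133.5, 88.16 to 100.5 and 75.47 to 81.44 CPM in that order. COX7B was at 127.2 to 144.7, 97.35 to 105.0 and 93.02 to 96.71 CPM. For these and PUS1, the scramble libraries stood apart from those of snaR-A and eGFP alike. Whether snaR-A or the scramble control made the snaR-A values was not tested.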

How the results depend on the processing

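The count of mitochondrial mRNAs higher in A549 stayed near its value of 12. The sizes moved more, with log2 differences of 0.55 to 1.03 for MT-CO2 and 1.61 to 2.15 for MT-ND1 over the alternative settings. Between 12 and 13 mRNAs were called in the leave-one-out fits, and 11 under library size alone, where MT-ND5 reversed to -0.15. The difference in mitochondrial share was 3.40 points with mRNAs only (5.12 with all 37 genes) and 4.78 to 5.57 in leave-one-out values. As a share of all 37 genes in place of the mRNAs, the differences were 1.94 points for MT-ND1, 1.59 for MT-ND2, 1.90 for MT-CO1, 0.19 for MT-CO3 and -3.20 for MT-ND5.

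Counts of mRNAs called by plasmid depended on the setting, and the cause was not tested. The number of all genes called also moved with the setting, and it is not given for the leave-one-out fits. For snaR-A in HEK293T (1 called) exactTest and no filter on low counts gave 3, the 12 libraries of the line together 0, and leave-one-out fits 1 to 9. For SF3B2 in HEK293T (0 called) DESeq2 gave 2 and leave-one-out fits 0 to 8. For eGFP against scramble in HEK293T (0) exactTest gave 2, DESeq2 1, library size alone 1 and leave-one-out fits 0 to 2. For SF3B2 in A549 (0) exactTest gave 2, DESeq2 3 and leave-one-out fits 0 to 1, and for eGFP against scramble in A549 (0) leave-one-out fits gave 0 to 1. The SF3B2 interaction (0) gave 7 with DESeq2, 2 with at least 10 counts in every library and 0 to 12 in leave-one-out fits. With the 3 doubted libraries left out, an alternative chosen after seeing the data, eGFP against scramble gave 1 in each line and the SF3B2 interaction 1. For snaR-A in A549 and its interaction, all settings run gave 0.

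The replicate block gave 2 mRNAs for snaR-A in HEK293T, 1 for eGFP against scramble in HEK293T and 2 for SF3B2 in A549. There it also called MT-RNR1 (0.49 ± 0.06, adjusted p = 0.0211, edgeR), while MT-RNR2 was no longer called for snaR-A in HEK293T (adjusted p = 0.0562, edgeR). Replicate numbers did not meet the bar for pairs over all genes, although A549 replicate 3 stood apart in the measures given with the libraries: same-numbered libraries had median correlations of their deviations from group means of -0.011 in A549 and -0.0097 in HEK293T.

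Of 214 nuclear list genes tested, the number called for SF3B2 in HEK293T went from 0 to 21 with DESeq2. Of all 22623 genes 0.172% were called, and with DESeq2 1083 higher and 1009 lower. For SF3B2 in A549 it went from 22 to 14 with library size alone and 41 with DESeq2. Of all 21581 genes 7.02% were called, 404 higher and 712 lower with library size alone, and 1441 and 1422 with DESeq2. For the SF3B2 interaction it went from 20 to 13 and 52 in the same order. Of all 24714 genes 6.10% were called, 924 higher and 292 lower with library size alone, and 1781 and 2270 with DESeq2. For the snaR-A interaction it went from 34 to 53 with DESeq2 and 53 without the doubted libraries. Of all genes 11.4% were called. With DESeq2 2560 were higher and 1875 lower of 24784, and without the doubted libraries 2080 and 1770 of 25391. For snaR-A in HEK293T the split was 42 higher and 47 lower, beside 17.8% and 18.5% of all genes. Under library size alone it was 73 and 15, beside 27.0% and 10.0%. Low counts limited the tRNAs, of which 12 were not tested between the lines.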
